A study of Mus musculus with 24 samples.

Results

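H3K27ac regions of tet-Myc liver were compared with those of wild-type liver, list against list. The members are all 20524 regions of the tet-Myc list and all 17821 of the wild-type list, 38345 of the 665214 regions and peaks in the 23 lists of the series. A region was matched to the other list when they shared at least 1 bp. By this rule 3442 tet-Myc regions had no wild-type counterpart and are called gained, which is 16.8% of that list (95% Wilson interval 16.3 to 17.3%), and 1317 wild-type regions had no tet-Myc counterpart and are called lost, which is 7.39% (7.02 to 7.78%).

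The livers came from R26-rtTA;tet-Myc mice and from R26-rtTA;WT mice, so both groups carried the reverse tetracycline transactivator at the Rosa26 locus, which is active in most cell types and not in hepatocytes alone. Food with doxycycline, the drug that switches the tet-Myc transgene on, was given for 2 days. Each antibody was used on 1 library per genotype, so no difference between the genotypes can be set against a spread between animals and none is tested. The sources used here do not say whether a library held 1 animal or several, or of what age and sex. Tissue markers were not checked, because positions are on mm9 and no mm9 gene annotation was used.

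H3K27ac is an acetyl mark laid down by p300 and CBP on nucleosomes at working promoters and enhancers. H3K4me3 marks promoters, and H3K4me1 spreads over enhancers and the shoulders of promoters, including sites that are not acetylated. Myc pairs with Max on E-boxes, mostly in chromatin that is already open, and recruits acetyltransferases. TEAD proteins hold the coactivator YAP at enhancers, and RNA polymerase II peaks mark initiation and pausing as well as transcribed gene bodies.

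Both lists covered nearly the same amount of genome, but the tet-Myc list did so in more and narrower pieces. The tet-Myc regions spanned 230.6 Mb with a median width of 7037.5 bp, and the wild-type regions spanned 231.4 Mb with a median width of 8148 bp. Inside each region the peak caller marks nested blocks of strong enrichment. These blocks took up 39.2% of the bases of the tet-Myc list, against 34.0% in the wild-type list, and 59.1% of tet-Myc regions had a single block, against 46.5% of wild-type regions. The tet-Myc list therefore had the larger share of strong bases in a slightly smaller covered length. By the path in their track headers, the wild-type list was made in analysis folder 419 and the H3K27ac lists of all 3 induced genotypes in folder 391. Genotype and this step of the processing therefore cannot be told apart.

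Most regions had exactly 1 partner. There were 13961 such one-to-one pairs, 68.0% of the tet-Myc list and 78.3% of the wild-type list. A further 1045 wild-type regions were split over 2245 tet-Myc regions, 565 tet-Myc regions merged 1188 wild-type regions, and 144 groups held several regions of each list (311 tet-Myc, 310 wild-type). Splits thus outnumbered merges. Of the split wild-type regions 87.8% had 2 tet-Myc pieces and of the merged tet-Myc regions 91.3% joined 2 wild-type regions, with at most 5 partners in either direction.

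**Figure D1:**
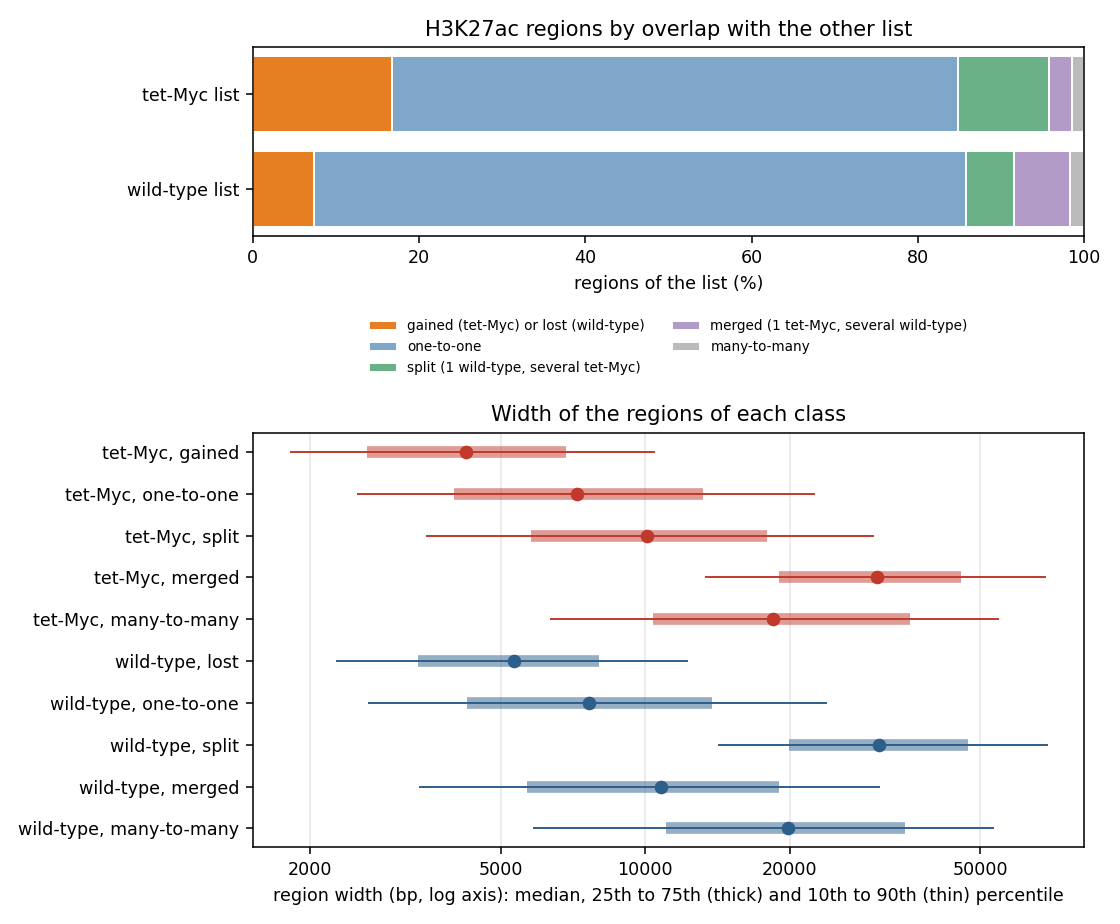
Top: share of each H3K27ac list (%, tet-Myc above wild-type) in each overlap class. Bottom: region width in bp on a log axis, with the point at the median, the thick line from the 25th to the 75th percentile and the thin line from the 10th to the 90th. Gained regions (median 4214 bp) and lost regions (median 5321 bp) are the narrowest class of their list, and merged tet-Myc and split wild-type regions the widest.

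Gained and lost regions sat at the weak end of their lists. The median width was 4214 bp for gained regions, against 7961.5 bp for the tet-Myc regions that overlapped a wild-type region. Lost regions had a median of 5321 bp, against 8563 bp for the overlapping wild-type regions. The peak caller's score has no stated scale and served for ranks inside each list alone. In the lower 50% of the scores lay 97.2% of gained regions and 97.3% of lost regions. In the top score decile of its list stood 1 gained region and no lost region (0 of 1782, with a Wilson upper bound of 0.215%). The gained share was 0.0487% in the highest decile of tet-Myc scores and 57.8% in the lowest, and the lost share was 0% and 29.6% in the same deciles of wild-type scores. With each list limited to its 10000 highest scores, the gained share was 12.9% and the lost share 14.6%, the reverse order. Against the whole other list the same 10000 regions gave 0.840% and 0.670%, with overlapping intervals. Gained regions made up 8.0% of the bases of the tet-Myc list, and lost regions 3.65% of those of the wild-type list.

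The 3 highest-scoring gained regions stood in the top 2 score deciles of the tet-Myc list, where 99.95% and 99.2% of all regions held a Myc peak. The gained region with the highest score was chr13:46110822-46120790 (mm9), 9969 bp wide and ranked 2026 of 20524. It held 1 Myc peak of 15.36-fold enrichment in tet-Myc liver, 3 TEAD peaks in tet-Myc liver and 2 in wild-type liver, and 3 RNA polymerase II peaks in tet-Myc liver and 0 in wild-type liver. The next, chr9:74367426-74381256, held 3 Myc peaks (up to 11.25-fold) and 5 polymerase peaks in tet-Myc liver, up to 13.85-fold, with 0 polymerase peaks in wild-type liver. The third by score, chr4:152251576-152273442, lay 550009 bp from the nearest wild-type region. It held 6 polymerase peaks in tet-Myc liver, up to 22.89-fold, against 0 in wild-type liver, and 3 TEAD peaks against 0. H3K4me3 was listed there in tet-Myc liver and not in wild-type liver, while wild-type H3K4me1 was present. All 3 regions were also in the tet-Myc/YAP H3K27ac list, and 2 of them in the tet-YAP list. None held a wild-type Myc peak. Peak counts of these and the other named regions come from the full lists. The tet-Myc lists were longer for TEAD (44220 peaks, against 33417) and for polymerase (74914, against 39181). Gained regions were also chosen for having no wild-type H3K27ac, so the contrasts with 0 are descriptive.

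The 3 widest gained regions differed among themselves. The widest, chr10:23788282-23832915, ran over 44634 bp with 7 strong blocks and held 3 Myc peaks and 4 polymerase peaks of tet-Myc liver, against 0 and 0 in wild-type liver. The region chr7:87908728-87938156 spanned 29429 bp but ranked 19615 by score and held 2 TEAD peaks, 0 Myc peaks and 0 polymerase peaks. The region chr7:47296024-47325253 (29230 bp) held 1 Myc peak, 2 TEAD peaks and 3 polymerase peaks in tet-Myc liver, against 0 Myc, 1 TEAD and 0 polymerase peaks in wild-type liver. None of these 3 overlapped H3K4me3 of either genotype.

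Among lost regions, the highest scores were lower in rank and held fewer peaks. The first, chr6:140510114-140526187, ranked 3118 of 17821 and nevertheless held 1 Myc peak of 16.09-fold in tet-Myc liver, with 1 polymerase peak in tet-Myc liver against 2 in wild-type liver. The next, chr7:30382989-30389581, had wild-type H3K4me3 and no tet-Myc H3K4me3, and its only factor peak in either genotype was 1 wild-type TEAD peak. The third, chr7:106771229-106786133, held 2 polymerase peaks in wild-type liver and 0 in tet-Myc liver. The widest lost regions, chr16:45786637-45819406, chr13:115802949-115834384 and chr10:13743167-13770360, spanned 32770, 31436 and 27194 bp, all ranked at 15167 or lower by score, and each lay within 10000 bp of a tet-Myc region (4814, 6724 and 4024 bp away).

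Most gained regions overlapped a site that carried a methylation mark in wild-type liver. Of the 3442 gained regions, 1220 (35.4%) overlapped wild-type H3K4me1 alone, 867 (25.2%) H3K4me3 alone, 354 (10.3%) both, and 1001 (29.1%) neither. In the overlapping tet-Myc regions these shares were 25.7%, 8.02%, 62.0% and 4.25%. Lost regions more often carried H3K4me1 alone: 751 of 1317 (57.0%) did, while 101 (7.67%) had H3K4me3 alone, 80 (6.07%) both and 385 (29.2%) neither. In total 35.5% of gained regions held wild-type H3K4me3, beside 64.2% of all tet-Myc regions, and 13.7% of lost regions did, beside 66.9% of all wild-type regions. Wild-type H3K4me1 was held by 45.7% of gained regions (80.7% of all tet-Myc regions) and by 63.1% of lost regions (86.1% of all wild-type regions). The gained regions with H3K4me3 alone were the narrowest, with a median of 2783 bp, and 96.0% of them also held H3K4me3 in tet-Myc liver. H3K4me3 in tet-Myc liver was found in 37.0% of gained regions (63.1% of all tet-Myc regions) and in 9.42% of lost regions (65.1% of all wild-type regions).

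Myc peaks of tet-Myc liver were found in 1390 gained regions, 40.4% (38.8 to 42.0%), beside 73.4% of all tet-Myc regions and 80% of the overlapping ones. Of lost regions 241 held one, 18.3% (16.3 to 20.5%), beside 76.5% of all wild-type regions and 81.1% of the overlapping ones. The difference between gained and lost regions was larger than the counting intervals, which treat regions of 1 library as independent and hold no spread between animals. It was present in each width class. In regions up to 2000, 4000 and 8000 bp and above, 52.2%, 39.1%, 36.2% and 41.9% of gained regions held a Myc peak. The lost classes lay between 14.5% and 20.7%. However, gained regions were chosen for H3K27ac in the liver where Myc was mapped, and lost regions for lacking it there. This choice by itself favours a higher Myc share in gained regions, so the difference is descriptive. Wild-type Myc peaks were rare in both classes, in 34 gained regions (0.988%) and 9 lost regions (0.683%), against 12.6% of all tet-Myc regions and 14.3% of all wild-type regions. The wild-type Myc list was called with a fragment length of 51 bp, the tag size itself, and its median peak was 81 bp wide, against 330 bp and 670 bp for tet-Myc, so that counts of Myc peaks in the 2 genotypes are not on the same footing.

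The Myc share followed the wild-type marks within gained regions. It was 73.2% where both H3K4me3 and H3K4me1 were present in wild-type liver, 50.4% with H3K4me1 alone, 38.5% with H3K4me3 alone and 18.2% with neither. In lost regions the same 4 shares were 35.0%, 22.0%, 20.8% and 7.01%, lower in each. For the overlapping tet-Myc regions they were 93.4%, 65.8%, 56.0% and 15.6%, so gained regions on unmarked sites held Myc about as often as overlapping regions on unmarked sites (intervals 15.9 to 20.7% and 13.1 to 18.4%).

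TEAD peaks of tet-Myc liver were in 54.5% of gained regions (77.8% of all tet-Myc regions) and in 40.7% of lost regions (80.3% of all wild-type regions). TEAD peaks of wild-type liver ran the other way, in 34.8% of gained regions and 43.1% of lost regions (71.9% and 77.2% of all regions of each list). Of gained regions 22.3% had TEAD in tet-Myc liver and not in wild-type liver, and 2.67% the reverse. In lost regions 10.4% had TEAD in tet-Myc liver only and 12.8% in wild-type liver only. The tet-Myc TEAD list is longer, with 44220 peaks against 33417. When it was cut to the 33417 best peaks, it held 1800 summits in gained regions, against 1303 summits of the wild-type list (1.38 times). The cut list was in 44.7% of gained regions (68.0% of all tet-Myc regions). In lost regions it held 474, against 615 (0.771 times), and was in 33.0% of them (70.6% of all wild-type regions). In bases common to both H3K27ac lists it held 23233, against 26338 (0.882 times). The cut removes the difference in length alone. Gained regions were chosen for H3K27ac in tet-Myc liver and lost regions for lacking it there, which by itself favours contrasts in these directions. Myc and TEAD shared regions: 72.9% of gained regions with Myc also held TEAD, against 42.0% of gained regions without Myc, beside 88.9% and 56.7% of overlapping tet-Myc regions. Neither factor was in 34.6% of gained and 8.66% of overlapping regions.

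RNA polymerase II peaks of tet-Myc liver were in 38.8% of gained regions (73.8% of all tet-Myc regions) and in 20.1% of lost regions (77.1% of all wild-type regions). Wild-type polymerase peaks were in 14.3% and 12.9% (56.2% and 61.2% of all regions). These lists differ in depth, with 50587918 tags in tet-Myc liver against 20914319 in wild-type liver, and in length, with 74914 peaks against 39181. Cut to 39181 peaks, the tet-Myc list was in 29.3% of gained regions and 11.3% of lost regions (66.9% and 70.7% of all regions of each list). In summits, the cut list had 1150 in gained regions, against 654 of the wild-type list (1.76 times). It had 217 in lost regions, against 305 (0.711 times), and 26766 in shared bases, against 26612 (1.01 times). As for TEAD, the choice of the classes by H3K27ac favours such contrasts, and the cut does not remove that. Among gained regions, polymerase was present in 54.7% of those with Myc and in 28% of those without, beside 90.2% and 43.8% of overlapping regions.

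**Figure D2:**
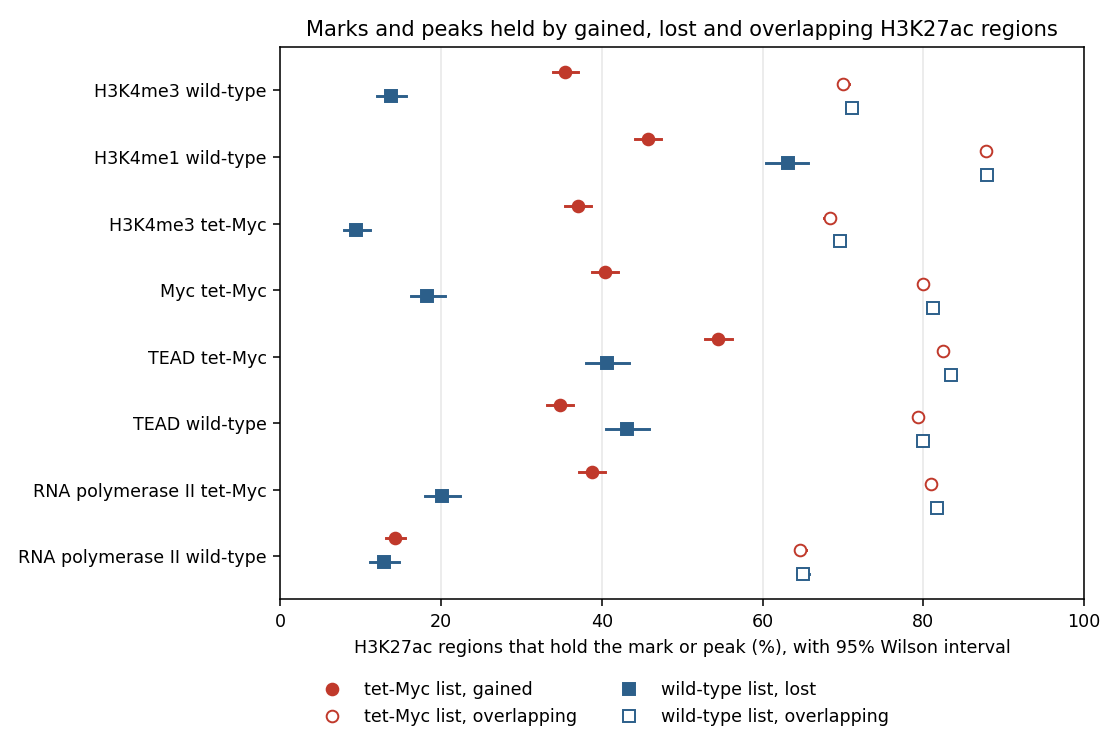
Share of H3K27ac regions (%) that hold each mark or peak, with 95% Wilson intervals (counting error only), for gained and overlapping regions of the tet-Myc list (circles, filled and open) and lost and overlapping regions of the wild-type list (squares, filled and open). Gained regions exceed lost regions for Myc (40.4%, against 18.3%) and wild-type H3K4me3 (35.5%, against 13.7%). They lie below them for wild-type H3K4me1 (45.7%, against 63.1%) and wild-type TEAD (34.8%, against 43.1%). Both classes were chosen by the genotype that lacked H3K27ac, so these contrasts are descriptive.

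Because gained and lost regions had low scores, they were also set beside overlapping regions of the same score decile. In the tet-Myc list gained and overlapping regions then held Myc at nearly equal rates. In deciles 6 to 10, counted from the highest scores, Myc was in 74.7%, 61.3%, 50.4%, 34.3% and 23.4% of gained regions, against 79.3%, 64.7%, 47.8%, 35.8% and 25.9% of overlapping regions. Weighted to the deciles of the gained regions, the difference was -1.40 percentage points. Width was not matched here: in decile 8 the median was 4063 bp for gained and 5705 bp for overlapping regions. By width class, without regard to score, the classes lay apart. In regions up to 2000, 4000 and 8000 bp and above, Myc was in 52.2%, 39.1%, 36.2% and 41.9% of gained regions. For overlapping tet-Myc regions these shares were 74.5%, 74.8%, 73.1% and 86.2%. In deciles 6 to 10 of the wild-type list Myc was in 15.7%, 24.0%, 16.7%, 17.0% and 18.2% of lost regions, against 82.0%, 72.7%, 64.3%, 53.2% and 45.0% of overlapping regions, a weighted difference of -36.3 points. The 2 comparisons by decile are not on the same footing. Gained regions were ranked on the score of the genotype in which Myc was mapped, while lost regions were ranked on the wild-type score and were chosen for having no tet-Myc H3K27ac. H3K27ac of tet-Myc/YAP liver was also asymmetric, with -6.29 points for gained and -63.7 points for lost regions. H3K27ac of tet-YAP liver differed by -33.4 points for gained and by -27.2 points for lost regions.

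RNA polymerase II of tet-Myc liver gave nearly the values of Myc at matched score, with -2.91 points for gained and -35.8 points for lost regions (-0.782 and -33.0 points with the list cut to the wild-type number). Wild-type TEAD was below the overlapping regions in both classes, by -21.1 points for gained and -15.2 points for lost regions. TEAD of tet-Myc liver differed by -7.25 points for gained regions and by -26.6 points for lost regions. Wild-type H3K4me1 differed by -24.9 points in gained regions and by -6.16 points in lost regions. Wild-type H3K4me3 differed by -32.3 points in lost regions. In gained regions its sign turned with the score, from -22.5 points in decile 6 to 7.79 points in decile 10, with gained regions higher in 3 of 5 deciles and a weighted difference of 2.89 points.

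**Figure D3:**
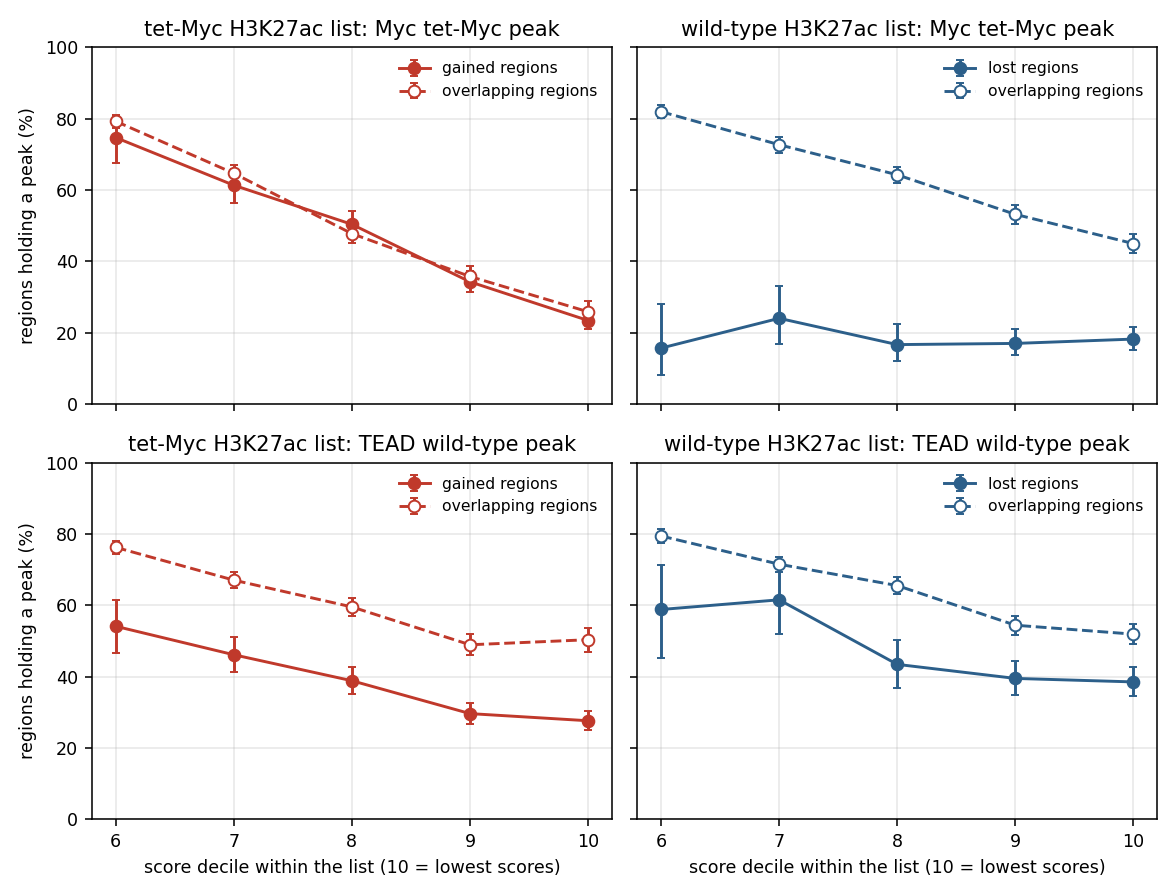
Share of regions (%) with a tet-Myc Myc peak (top) or a wild-type TEAD peak (bottom) by score decile within the list, where 10 holds the lowest scores, with 95% Wilson intervals. The left panels show gained (filled) and overlapping (open) regions of the tet-Myc list, the right panels lost (filled) and overlapping (open) regions of the wild-type list. The Myc lines of gained and overlapping regions lie together (50.4%, against 47.8% in decile 8), while lost regions stay between 15.7% and 24.0%.

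Base by base, 189.0 Mb were common to both lists, 69.3% of their union of 273.0 Mb. Another 41.5 Mb were covered in tet-Myc liver only and 42.4 Mb in wild-type liver only. The tet-Myc-only bases consisted of 18.4 Mb of gained regions, 20.3 Mb of flanks added to overlapping regions and 2.83 Mb of gaps filled between wild-type regions. The wild-type-only bases consisted of 8.46 Mb of lost regions, 28.5 Mb of trimmed flanks and 5.41 Mb of gaps that split a region. Flanks were thus the larger part on both sides, with whole regions close behind them in tet-Myc liver and well below them in wild-type liver.

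Myc summits were 4.49 times as dense in tet-Myc-only bases as in wild-type-only bases (interval 4.04 to 5.01, counting only), with 1861 summits at 44.8 per Mb, against 423 at 9.98 per Mb. The ratio was 1.87 with the 10000 highest-scoring regions of each list. Shared bases held 28362 summits at 150.0 per Mb, which is 87.0% of the 32592 Myc peaks. The ratio was 2.88 (2.52 to 3.30) for gained over lost regions, with 85.4 summits per Mb against 29.7, and 2.43 (1.99 to 2.97) for added over trimmed flanks, with 13.6 against 5.61. In gaps it was 1.60, with an interval of 0.617 to 4.03 that includes 1, so no difference was detectable there. The pooled ratio exceeds each of these 3 ratios, because tet-Myc-only bases held more of the dense whole regions (18.4 Mb, against 8.46 Mb) and fewer flanks. Only 7 of 789 filled gaps and 10 of 1367 split gaps held a Myc summit. Another 5.97% of Myc peaks lay outside both H3K27ac lists. Myc peaks reached a median fold enrichment of 7.41 in gained regions and 6.59 in lost regions, beside 8.51 in shared bases.

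Wild-type TEAD came from liver without the Myc transgene, but it is not a neutral comparison. Gained regions were chosen for lacking wild-type H3K27ac and lost regions for having it, whereas Myc was mapped in tet-Myc liver. Wild-type TEAD summits had densities of 70.7 per Mb in gained regions and 72.7 per Mb in lost regions. The ratio was 0.971, with an interval of 0.882 to 1.07 that includes 1. In flanks the ratio was 0.873 (0.731 to 1.04) and in gaps 0.589 (0.231 to 1.34). TEAD of tet-Myc liver gave 126.0 per Mb in gained regions, against 73.4 in lost regions, a ratio of 1.72 (1.57 to 1.88). For added over trimmed flanks tet-Myc TEAD gave 1.42 (1.25 to 1.62). Pooled over all tet-Myc-only and wild-type-only bases, wild-type TEAD gave 1.59, above its ratio in each kind of base and on the other side of 1, which comes from the unequal mix of regions and flanks. The pooled 4.49 of Myc holds the same mix. For RNA polymerase II the pooled ratio was 1.08 (1.03 to 1.13) in tet-Myc liver and 0.698 (0.648 to 0.751) in wild-type liver. With polymerase the direction depended on the kind of base: gained over lost regions gave 1.55 in tet-Myc liver, and added over trimmed flanks 0.885. With the tet-Myc list cut to the wild-type number these ratios were 2.43 (2.10 to 2.82) and 0.879, and the pooled one was 1.42.

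**Figure D4:**
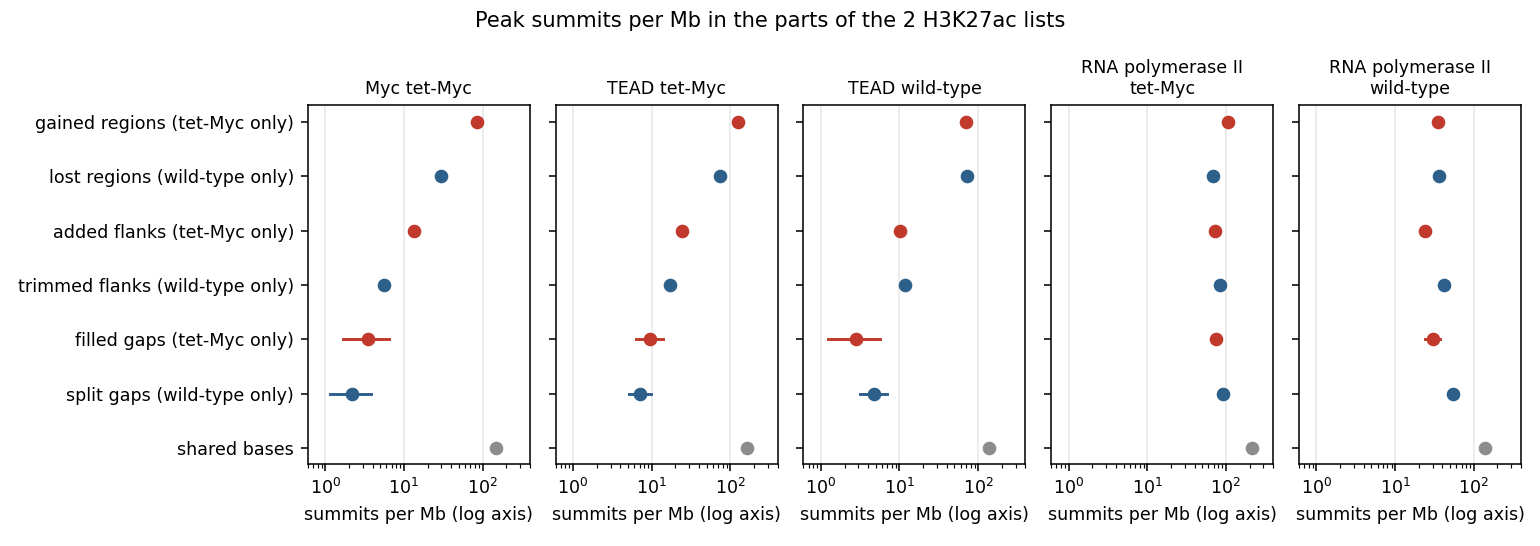
Peak summits per Mb (log axis) in the bases of gained regions, lost regions, added and trimmed flanks, filled and split gaps and shared bases, with exact 95% Poisson intervals, for 5 peak lists. Red marks bases of the tet-Myc list only, blue of the wild-type list only and grey the shared bases. Myc summits were denser in gained than in lost regions (85.4 per Mb, against 29.7), and so were tet-Myc TEAD summits (126.0, against 73.4). Wild-type TEAD summits were not (70.7, against 72.7). Both classes were chosen by the genotype that lacked H3K27ac, so peak lists of different genotypes are not on the same footing.

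Within gained regions Myc summits lay mostly in the strong blocks, as in overlapping tet-Myc regions, where 91.7% did (40.7% of bases). They were most frequent near the centre, with 0.203 per kb and region in the 500 bp right of it, beside 0.287 in one-to-one regions. Each bin around the centre is divided by all regions of a class, whatever their width, so the fall with distance is descriptive. Of 1575 Myc summits in gained regions, 67.9% (65.5 to 70.1%) fell in strong blocks, which covered 22.7% of the bases. Of 251 Myc summits in lost regions, 21.9% (17.2 to 27.4%) fell in the strong blocks of the wild-type region, which covered 16.2% of the bases. For tet-Myc TEAD these shares were 47.4% in gained regions and 20.3% in lost regions, beside 83.1% in overlapping tet-Myc regions. For wild-type TEAD they were 52.1% and 33.3%, beside 87.9%. The blocks of gained regions come from the tet-Myc library and those of lost regions from the wild-type one, which matches the genotype of the Myc library only in the first case.

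**Figure D5:**
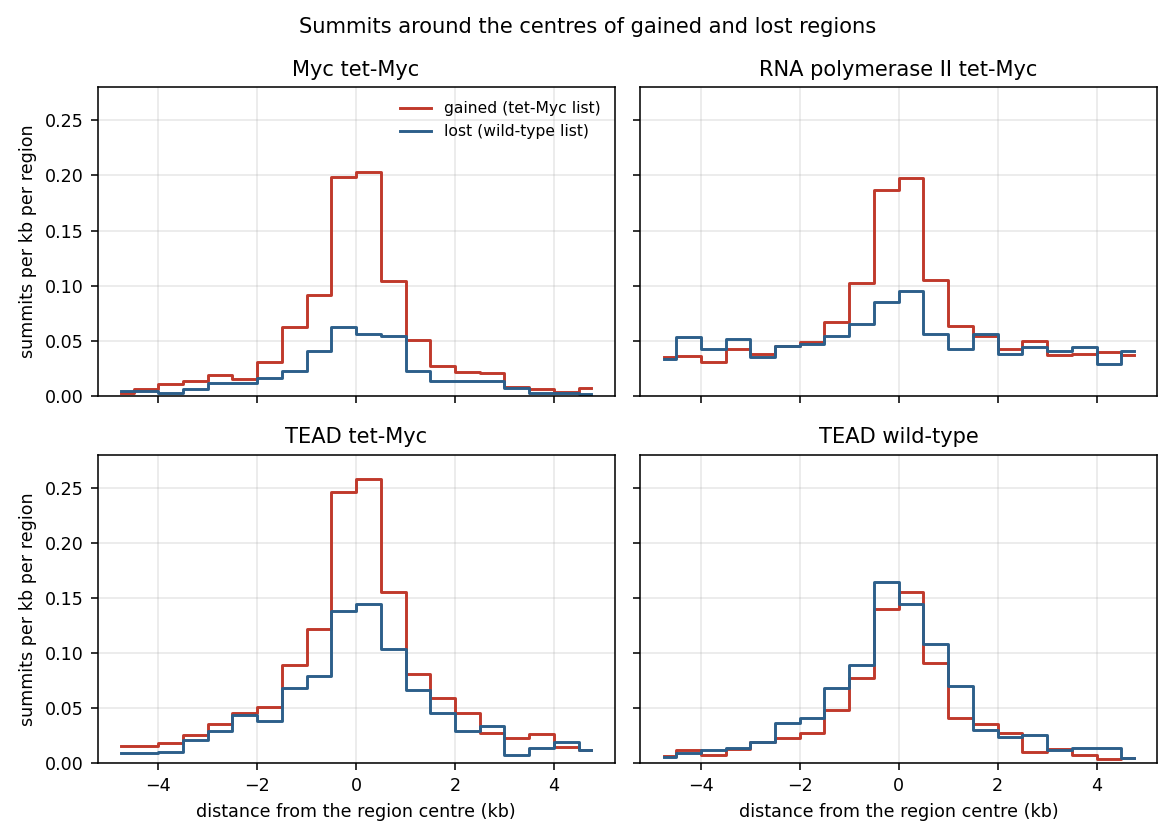
Peak summits per kb and region around the centres of gained (red) and lost (blue) regions, in bins of 500 bp out to 5000 bp on either side, for Myc, RNA polymerase II and TEAD of tet-Myc liver and TEAD of wild-type liver. Within 500 bp right of the centre there were 0.203 Myc summits per kb for gained regions, and the wild-type TEAD curves of gained and lost regions lie close together. Each bin is divided by all regions of the class, also those too narrow to reach it.

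In one-to-one pairs the region as a whole was slightly narrower in tet-Myc liver, while its strong blocks were larger. The median width was 7184 bp in tet-Myc liver and 7640 bp in wild-type liver, and the median of the pairwise ratio was 0.967 (0.964 to 0.971), with 43.3% of pairs wider in tet-Myc liver. The summed strong blocks had a median of 2511 bp in tet-Myc liver and 2120 bp in wild-type liver, with a median ratio of 1.14 (1.14 to 1.15) and 68.7% of pairs larger in tet-Myc liver. Pairs overlapped closely, with 88.2% sharing at least 50% of both regions.

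By wild-type width the ratio was 1.16 for regions up to 2000 bp and 0.942 for those above 8000 bp. Since this width is the denominator of the ratio, narrow classes are bound to lean to high ratios and wide ones to low ratios, and nothing is read from that trend. The ratio was 0.973 in the 11228 pairs with a Myc peak and 0.941 in the 2733 pairs without one. Above 8000 bp it was 0.951 (0.945 to 0.955) with Myc and 0.866 (0.837 to 0.894) without, and in pairs of up to 2000 bp it was 1.16 and 1.13, with overlapping intervals. A pair counted as holding Myc when a peak lay in either of its regions, and the classes are again set by the denominator.

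Large changes of extent ran toward narrower regions and larger blocks. Of the one-to-one pairs 1413 (10.1%) were over 1.5 times wider in tet-Myc liver and 2107 (15.1%) over 1.5 times narrower. Strong blocks were over 1.5 times larger in 3433 pairs (24.6%) and over 1.5 times smaller in 984 (7.05%). Myc was in 75.9% of the pairs with larger blocks and in 55.6% of those with smaller blocks, and wild-type H3K4me3 was in 62.3% and 39.2%. Both classes lay below the share over all pairs, which was 80.4% for Myc and 71.0% for H3K4me3, and below the 84.6% of Myc in pairs whose blocks stayed within 1.5 times. Wild-type H3K4me1 was in 79.4% and 88.0% (86.9% of all pairs), and wild-type TEAD in 70.2% and 70.9% (79.2% of all pairs). By width, Myc was in 78.7% of wider and 72.3% of narrower pairs, against 82.3% of pairs within 1.5 times.

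The pairs with the largest change in bp were long domains. The region chr15:36342522-36391179 was 48658 bp wide in tet-Myc liver, against 9919 bp in wild-type liver, and held 2 Myc peaks and 3 TEAD peaks of up to 32.35-fold in tet-Myc liver, against 0 Myc peaks and 2 TEAD peaks of up to 12-fold in wild-type liver. The region chr11:16633905-16782562 measured 148658 bp, against 113118 bp in wild-type liver, and held 38 Myc peaks, against 1. The region chr3:129246739-129337600 measured 90862 bp, against 55379 bp. In the other direction chr11:20975549-20995405 was 19857 bp wide in tet-Myc liver, against 60879 bp in wild-type liver, and still held 3 Myc peaks of up to 11.52-fold and polymerase of 35.04-fold, against 27.3-fold in wild-type liver. The regions chr6:121772959-121805682 and chr4:130254090-130283345 were narrower by differences of -39120 and -35637 bp and held 4 and 5 Myc peaks. Of all pairs above 8000 bp in wild-type liver, 5621 of 6687 held Myc, so its presence in these long regions is not particular to them.

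Merged and split regions were the widest domains of their lists. Merged tet-Myc regions had a median width of 30357 bp and split wild-type regions one of 30754 bp. Myc was in 96.1% of merged tet-Myc regions and in 92.4% of split wild-type regions. Above 8000 bp it was in 86.2% of overlapping tet-Myc regions and in 85.3% of overlapping wild-type regions. The gaps that were filled had a median of 2766 bp and those that opened one of 2895 bp, close to the smallest gaps in the lists (2017 bp in tet-Myc, 1986 bp in wild-type). The merged region with most partners, chr19:10085295-10225436 (140142 bp), joined 5 wild-type regions and held 17 Myc peaks of up to 38-fold. The merged regions chr17:29517539-29651642 and chr2:157880686-158008272 joined 4 each and held 14 and 18 Myc peaks. Of the split wild-type regions, chr10:53049391-53161517, chr13:75839225-75942136 and chr3:105528212-105630868 each broke into 5 tet-Myc regions. They held 29, 44 and 38 polymerase peaks in tet-Myc liver, against 40, 48 and 1 in wild-type liver.

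Most gained regions lay more than 10000 bp from a wild-type region. Their median distance to the nearest wild-type region was 23443 bp, and 26.5% were within 10000 bp. Lost regions lay at a median of 19680 bp from the nearest tet-Myc region, and 30.8% were within 10000 bp. The median gap between neighbouring regions of the same list was 25147 bp in tet-Myc and 28101.5 bp in wild-type. That gap is to the next region and not to the nearest, so it is a rough reference only. Nothing particular to gained or lost regions is read from these distances. Of gained regions within 10000 bp 35.9% held Myc, against 42.0% of those farther away.

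The X chromosome differed from the autosomes in the gained share. On X 160 of 478 tet-Myc regions were gained, 33.5% (29.4 to 37.8%), while the autosomes ranged from 14.1% to 18.7% and together gave 16.4%. The lost share on X was 6.58% (4.35 to 9.85%), beside 7.41% on autosomes. Gained regions on X more often held wild-type H3K4me3 (61.9%, against 34.2% for autosomal gained regions) and less often wild-type H3K4me1 (11.9%, against 47.4%), and they held Myc about as often (41.9%, against 40.3%). Overlapping regions on X also differed from autosomal ones, with wild-type H3K4me3 in 78.6%, against 69.9%, and H3K4me1 in 50%, against 88.4%. The same wild-type list gave a gained share on X of 25.4% in tet-YAP liver and 34.8% in tet-Myc/YAP liver, beside 14.9% and 17.5% on their autosomes. There were 478 regions on X in tet-Myc liver, 413 in tet-YAP liver and 492 in tet-Myc/YAP liver, against 319 in wild-type liver. Without X the gained share was 16.4% and the Myc density ratio 4.38.

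The tet-Myc/YAP and tet-YAP livers, in which YAP S127A is induced with and without Myc, gave lists that the gained and lost classes did not use. Of gained regions 68.8% (67.3 to 70.4%) were also in the tet-Myc/YAP list, beside 90.0% of all tet-Myc regions, and 48.4% (46.7 to 50%) in the tet-YAP list, beside 87.1%. Of lost regions 22.1% (19.9 to 24.4%) were in the tet-Myc/YAP list, beside 89.5% of all wild-type regions, and 56.6% (54.0 to 59.3%) in the tet-YAP list, beside 92.2%. The tet-Myc/YAP list thus held more of the gained regions, and fewer of the lost ones, than the tet-YAP list did. It also resembled the tet-Myc list in strong blocks (38.6% and 39.2% of bases), while the tet-YAP list was nearer the wild-type list (32.0% and 34.0%). The tet-Myc/YAP list covered 201.4 Mb, against 231.2 Mb for tet-YAP. With 1 library each, the sharing of regions and the likeness of the lists cannot be told apart. With Myc bound, 78.6% of gained regions were in the tet-Myc/YAP list and 49.5% in the tet-YAP list. Without Myc these shares were 62.2% and 47.6%. Overlapping tet-Myc regions gave 97.4% and 96.8% with Myc and 82.0% and 87.2% without it, so a higher share in the tet-Myc/YAP list where Myc was bound was not particular to gained regions. In neither list were 23.8% of gained and 39.6% of lost regions.

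The comparisons of the 3 induced livers with wild-type liver share the wild-type library, so their values stand side by side only. The gained share was 16.8% for tet-Myc liver, 15.1% for tet-YAP liver and 17.9% for tet-Myc/YAP liver, and the lost share, in the same order, was 7.39%, 7.84% and 10.5%. A Myc peak of tet-Myc liver was in 40.4%, 28.7% and 36.0% of the gained regions of these livers and in 18.3%, 38.4% and 27% of the lost ones. The density of those Myc summits in bases of the induced liver only, over bases of wild-type liver only, was 4.49, 1.20 and 3.54. It was lowest in tet-YAP liver. Wild-type TEAD summits gave 1.59, 1.29 and 2.07 in the same order, also lowest in tet-YAP liver. Neither ratio was taken apart by kind of base for the other genotypes. The median one-to-one width ratio was 0.967, 0.989 and 0.896, and that of strong blocks 1.14, 0.931 and 1.03. In all 3 comparisons the wild-type list is the one from the other analysis folder.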

How the data were processed

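ChIP-seq was done on fixed liver with antibodies to histone marks, Myc, TEAD and RNA polymerase II. Of 24 samples, 1 (input) could not be assigned to a group and is not analysed here. Of 23 lists, 13 were used. The submitters' processing notes name BWA 0.6.2, SAMtools, MACS2 2.0.9 and mm9. Each library was called by itself. The authors deposited histone marks as broad regions with nested blocks and a score of unstated scale, used only for ranks. For the broad lists the sources used here state no depth, control or cutoff. Factor lists were deposited with fold enrichment (a ratio to the control), a −log10 q-value and pileup signal, which was not used. Per the file headers the p-value cutoff was 1.00e-05 and the 6 narrow lists rest on 20653036 to 50587918 tags.

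Overlaps of at least 1 bp were computed in Python 3.11.15 with numpy 2.4.6 and pandas 2.3.3. On simulated lists the overlap code recovered 9 of 9 known counts, and 3 of 3 real counts equalled those of bedtools 2.31.1. Regions sharing partners were classed as one-to-one, split, merged or many-to-many. A region held a factor when a peak overlapped it by 1 bp, and densities count summits. Where tet-Myc and wild-type peak numbers were unequal, the tet-Myc list was also cut to the wild-type number by −log10 q. Shares carry 95% Wilson intervals, densities exact Poisson intervals, ratios of densities exact binomial ones and medians order-statistic ones (scipy 1.17.1). All cover counting error only. Genotypes were not tested against each other, as each has 1 library per antibody.

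Named regions were the 3 widest and 3 highest-scoring gained and lost regions, the 3 one-to-one pairs with the largest gain and loss in bp, and the 3 merged and split regions with most partners. Members, lists and rules were chosen with earlier results of these data known. Positions are 1-based on mm9. No mm9 genome or annotation was used, so no gene names or sequences are given. Alternatives were a stricter overlap, the 10000 highest scores, joining of near regions, stronger Myc peaks, summits in place of peaks and autosomes only. Those chosen after seeing the data were joining at 5000 bp, strong blocks in place of regions and the tet-YAP list in place of the wild-type one.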

Additional observations from a re-analysis of the deposited data

How the results depend on the processing

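Autosomes alone moved none of the 6 main values beyond its interval. Nor did an overlap of 50% of the shorter region for the 5 values other than the density ratio, or a Myc summit inside the region for the 2 Myc shares. Joining regions under 1000 bp apart changed nothing, as no gap was that small. With the 10000 highest scores of each list the gained share was 12.9%, the lost share 14.6%, Myc was in 92.5% of gained and 97.5% of overlapping regions and the Myc density ratio was 1.87. Most of those unmatched regions had a counterpart further down the other list, since against the whole other list the gained and lost shares were 0.840% and 0.670%. The order of the 2 shares among equal numbers of strong regions thus depended on the comparison. Against the whole other list their intervals overlapped (0.679 to 1.04% and 0.528 to 0.850%). With Myc peaks of −log10 q of at least 10, Myc was in 30.3% of gained and 72.7% of overlapping regions and the density ratio was 5.56.

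Of the alternatives chosen after seeing the data, joining regions under 5000 bp apart gave a lost share of 6.96%, a width ratio of 0.978 and Myc in 82.5% of overlapping regions. Strong blocks in place of regions gave gained and lost shares of 24.6% and 14.3%, Myc in 24.5% of gained and 64.3% of overlapping blocks and a density ratio of 6.52, and they reversed the width ratio to 1.08. With the tet-YAP list, which comes from the same analysis folder as the tet-Myc one, in place of the wild-type one, the gained and lost shares were 12.9% and 10.8%, the width ratio 0.977, Myc was in 42.9% of gained and 77.9% of overlapping regions and the density ratio was 3.75. The cause of these shifts was not tested.

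No paired analysis was possible because each genotype has 1 library per antibody. For the same reason no replicate was left out. The depth of the H3K27ac libraries is unknown, and 97.2% of gained and 97.3% of lost regions lay in the lower 50% of scores.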

Other observations

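Peak numbers on the X chromosome can be set beside the H3K27ac values. Myc had 434 peaks on X and 32151 on autosomes in tet-Myc liver, and 76 and 4526 in wild-type liver. TEAD had 600 and 43617 in tet-Myc liver, and 309 and 33106 in wild-type liver. RNA polymerase II had 1056 and 73835 in tet-Myc liver, and 548 and 38627 in wild-type liver. In the H3K4me3 lists 51 of 539 tet-Myc regions on X had no wild-type counterpart (9.46%, 7.27 to 12.2%), beside 7.15% on autosomes. On Y, TEAD had 3 peaks in tet-Myc liver and 2 in wild-type liver, and RNA polymerase II 23 and 6. Myc had 3 and 173. The 173 come from the wild-type Myc list, called with a fragment length of 51 bp, so the Myc counts are not on the same footing. Each H3K27ac list had 3 regions on Y, with 0 gained and 0 lost. The sources used here do not state the sex of the animals.

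Gained regions with none of the 3 factors were also described. No Myc, TEAD or RNA polymerase II peak of tet-Myc liver was in 846 gained regions (24.6%), against 574 lost regions (43.6%) and 5.02% of overlapping tet-Myc regions. Polymerase without either factor was in 345 gained regions (10%) and 124 lost regions (9.42%).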
